A study of Homo sapiens with 6 samples.

Results

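The Kruppel-like factor (KLF) genes described here are KLF2, KLF3, KLF4, KLF5, KLF6, KLF9, KLF10, KLF11, KLF13 and KLF15, found by symbol among the 60676 gene identifiers of the count tables. This list was chosen with earlier results of these data known. All 10 were abundant enough to be tested among 15577 genes. The tables hold 8 further KLF genes, of which 5 were tested. RNA sequencing counted their transcripts in HEK293A, a subclone of the HEK293 line of human embryonic kidney that grows attached to the dish. Each of the 3 vehicle libraries came from cells given DMSO, and each of the 3 compound libraries from cells given 20 nM VT01454, named in the labels by this code only, for 2 h. All libraries share this one cell line, and the comparison rests on 1 dose and 1 time. Nothing in the labels states that the replicates were grown separately. The p-values therefore measure the spread between these 6 libraries alone, which may be technical.

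KLFs are transcription factors with zinc fingers at the C-terminus that bind GC-rich and CACCC sequences, and they fall into subgroups by the partners their N-terminal parts recruit. KLF3, with its relatives KLF8 and KLF12, binds the corepressor CtBP. KLF9, KLF10, KLF11 and KLF13 bind the corepressor SIN3A, while KLF2, KLF4, KLF5 and KLF6 act largely as activators through acetyltransferases. Several KLF genes are known as early responders to growth factors, TGF-beta, steroid hormones or shear stress, and KLF4 is best known as a reprogramming factor.

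Library totals ran from 19126039 to 28880374 counts, and a single count equalled 0.0351 to 0.0522 CPM, the unit of counts put on one library size after TMM normalisation. A set of 17 genes was near 0 in exactly 2 or 4 libraries and at 10 counts or more in the others: 6 of them were near 0 in vehicle library 3 and compound library 1, 6 in compound libraries 2 and 3, 3 in vehicle libraries 1 and 2, and 2 in every library except vehicle 1 and 2. The cause of this pattern was not tested. A fit with a term for these library pairs is reported below, with the members' values within vehicle library 3 and compound library 1. Only that pair spans both groups, so in the other libraries pair and compound cannot be told apart. Chi-square per degree of freedom was 7.16 to 17.9 between vehicle libraries and 1.99 to 2.66 between compound libraries, so the vehicle group was the more scattered. Of the HEK293 markers listed, KRT8 was at 963 ± 67.1 CPM in vehicle (SD, n = 3) and VIM at 272 to 325 CPM, while LHX1 was at most 0.111 CPM in any library. KRT18 and NEFL averaged 281 and 676 CPM in vehicle, and PAX2 only 0.518 CPM. NEFM was uneven, at 4.10, 6.58 and 0.369 CPM in vehicle and 0.140, 3.74 and 3.80 CPM with the compound. It was thus lowest in vehicle library 3 and compound library 1. The summed leukocyte markers reached 0.406 to 1.04 CPM in vehicle and 0.858 to 1.13 CPM with the compound, with PTPRC and CD3E at 0 in every library, and 4 squamous epithelial markers summed to at most 0.572 CPM. The 4 endothelial markers summed to 1.57 to 2.45 CPM in vehicle and 1.14 to 1.85 CPM with the compound, and the 5 fibroblast markers to 27.7 to 40.8 and 25.6 to 36.4 CPM, most of it COL1A1. No marker passed the test.

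After 2 h with the compound, 6 of the 10 members rose and 0 fell. A gene was called where edgeR's quasi-likelihood test gave an adjusted p under 0.05 with the Benjamini-Hochberg method across the 15577 genes. DESeq2 and limma-voom also called 6 higher and 0 lower, and 1 member, KLF5, was lower at an unadjusted p below 0.05, which 14.4% of all tested genes reached in either direction. KLF6 rose 1.86-fold, KLF9 1.59-fold, KLF4 1.58-fold, KLF11 1.46-fold, KLF3 1.31-fold and KLF10 1.24-fold. The 4 members that did not pass were KLF2, KLF5, KLF13 and KLF15. Among all tested genes 1.27% were called higher and 0.616% lower. The median log2 fold change was 0.354 over the members and −0.00734 over all tested genes. Because the members were chosen with earlier results of these data known, these shares and medians are a description only. Of the 5 other tested KLF genes 1 was called higher and 0 lower, with a median of −0.00517. The groups did not overlap in 7 members, 6 higher with the compound and 1, KLF5, lower, where 11.3% of all tested genes lay wholly higher and 9.84% wholly lower. In bulk RNA, more cells with a transcript and more transcript per cell cannot be told apart.

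**Figure D1:**
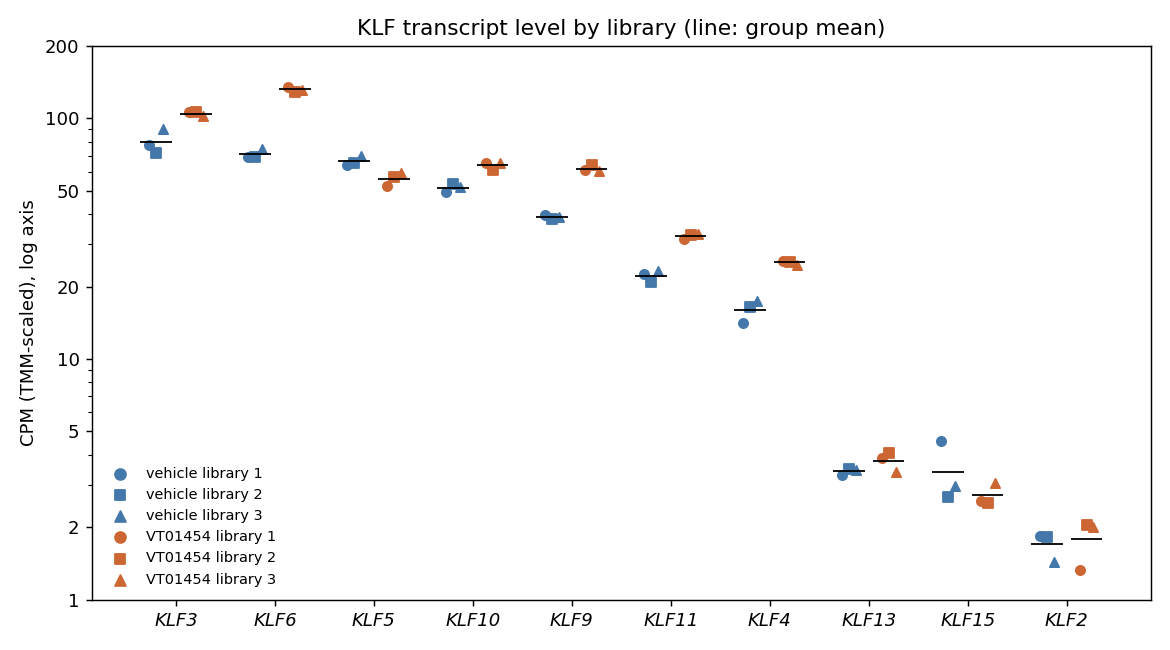
Transcript level of each of the 10 KLF genes in every library, in CPM on a log axis, with vehicle in blue and VT01454 in orange. Lines mark group means over 3 libraries. KLF6 stands at 69.0 to 74.3 CPM in vehicle and 129 to 136 CPM with the compound, whereas the points of KLF2, KLF13 and KLF15 overlap between the groups.

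Of the 10 members KLF6 had the largest fold change. It encodes a widely expressed activator first found as a core promoter element binding protein, and lies on chromosome 10 from 3775996 to 3785281 (hg38, minus strand). The vehicle libraries held 69.0, 69.4 and 74.3 CPM and the compound libraries 135.6, 128.7 and 131.7 CPM. Every compound library was thus well above every vehicle library, and the 3 libraries of each group lay close together. The log2 fold change was 0.90 ± 0.06 (SE; 95% interval 0.77 to 1.03, adjusted p = 3.01e-06). By size it stood 24th among the 198 genes called higher.

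KLF4 (chromosome 9, 107484852 to 107490482, minus strand), which drives epithelial differentiation and growth arrest in many tissues, went from 14.1, 16.4 and 17.4 CPM to 25.7, 25.4 and 24.7 CPM. The compound libraries were nearly identical and the spread was in the vehicle group, with vehicle library 1 the lowest. The log2 fold change was 0.66 ± 0.09 (95% interval 0.46 to 0.85, adjusted p = 0.00166). Its relatives KLF2 and KLF5 did not pass the test. KLF2 (chromosome 19, 16324817 to 16327874), the flow-responsive factor of endothelium and of quiescent lymphocytes, was barely expressed, at 1.84, 1.83 and 1.44 CPM in vehicle and 1.33, 2.05 and 2.00 CPM with the compound, or 35 to 51 counts per library. The groups overlapped, compound library 1 holding the lowest value. The difference was 0.079 ± 0.24 (adjusted p = 0.904), and its 95% interval, −0.44 to 0.60, included the values measured for KLF3, KLF10 and KLF11 but not those of KLF4, KLF6 or KLF9. At this depth a rise as small as that of KLF10 was not detectable in KLF2.

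KLF5 (chromosome 13, 73054976 to 73077542), a growth-promoting factor of intestinal and basal epithelium, was well expressed and lay on the other side of 0. Vehicle libraries held 63.8, 65.5 and 69.9 CPM and compound libraries 52.2, 57.0 and 59.2 CPM. Every compound library was below every vehicle library, but the difference of −0.24 ± 0.07 (95% interval −0.395 to −0.093) did not pass after adjustment (unadjusted p = 0.00404, adjusted p = 0.117). The adjusted p ran from 0.0540 to 0.467 when single libraries were left out.

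**Figure D2:**
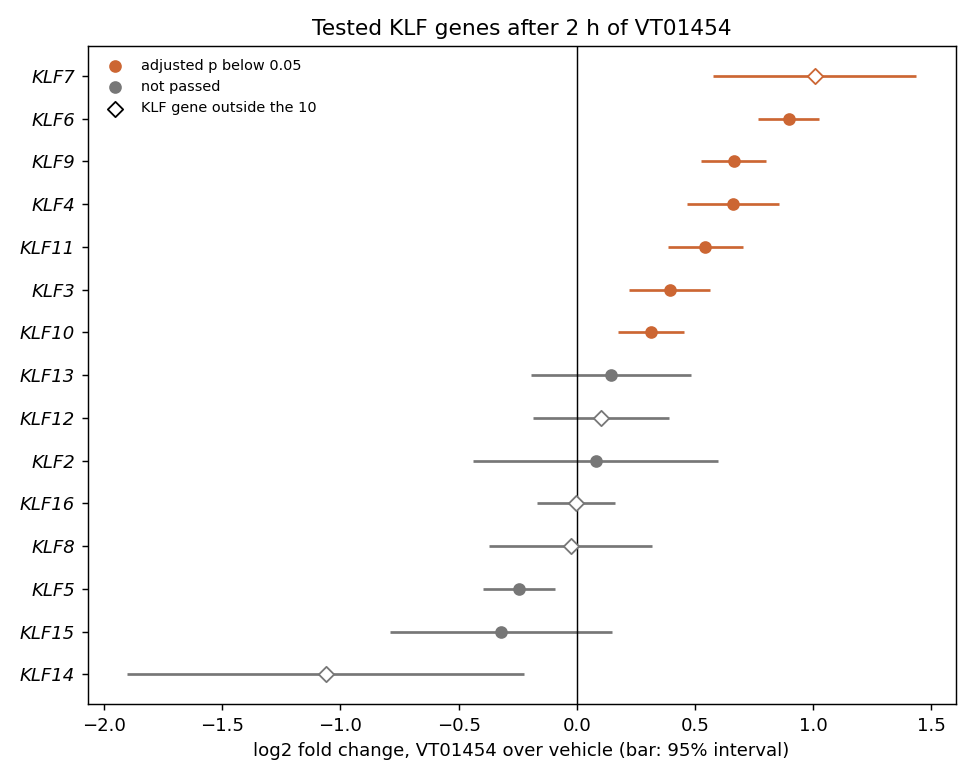
Log2 fold change of VT01454 over vehicle for the 15 tested KLF genes, with 95% intervals from the edgeR fit. Filled circles are the 10 members and open diamonds the other KLF genes, in orange where the adjusted p was below 0.05. The 6 members that rose span 0.32 to 0.90, and the intervals of KLF2, KLF13 and KLF15 cross 0.

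Of the SIN3-binding repressors, KLF9, KLF10 and KLF11 rose and KLF13 did not pass. KLF9 (chromosome 9, 70384597 to 70414624, minus strand), known as a gene induced by thyroid hormone and glucocorticoids, stood at 39.9, 38.0 and 39.0 CPM in vehicle and 60.9, 64.0 and 60.5 CPM with the compound. Both groups were tight and far apart, with a log2 fold change of 0.66 ± 0.06 (95% interval 0.53 to 0.80, adjusted p = 8.37e-05). KLF11 (chromosome 2, 10042849 to 10054836), also called TIEG2 and tied to TGF-beta responses and to insulin gene regulation, went from 22.5, 21.0 and 23.2 CPM to 31.6, 32.8 and 33.0 CPM, again with no overlap. Its log2 fold change was 0.54 ± 0.07 (95% interval 0.38 to 0.70, adjusted p = 0.00165).

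The promoter letters of the members are given as a description, and no link between them and the rises was tested. RefSeq (GRCh38.p14) windows of 250 bases before to 50 after a start matched 8 of the 10 members, in 10 windows; KLF3 and KLF10 had no entry. The 250 bases before the start follow for 4 members whose annotated exons do not reach into them, 2 that rose (KLF4 and KLF9) and 2 that did not pass (KLF5 and KLF13). For KLF4 the stretch lies inside the gene span given above, which reaches further upstream than this RefSeq start. Capitals mark the GC box, GGGCGG on either strand. They lie at chr9:107489770-107490019 (minus strand) for KLF4, chr9:70414658-70414907 (minus strand) for KLF9, chr13:73054726-73054975 (plus strand) for KLF5 and chr15:31326585-31326834 (plus strand) for KLF13.
KLF4: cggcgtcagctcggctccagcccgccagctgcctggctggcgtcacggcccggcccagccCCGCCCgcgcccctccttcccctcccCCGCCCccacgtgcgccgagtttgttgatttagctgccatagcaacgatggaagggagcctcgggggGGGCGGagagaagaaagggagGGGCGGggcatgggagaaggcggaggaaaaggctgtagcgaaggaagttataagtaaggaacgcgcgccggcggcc
KLF9: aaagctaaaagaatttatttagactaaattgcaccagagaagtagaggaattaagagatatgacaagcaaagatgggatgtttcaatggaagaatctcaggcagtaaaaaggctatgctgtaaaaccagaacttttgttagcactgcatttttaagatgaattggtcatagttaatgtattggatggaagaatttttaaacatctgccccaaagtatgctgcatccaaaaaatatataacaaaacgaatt
KLF5: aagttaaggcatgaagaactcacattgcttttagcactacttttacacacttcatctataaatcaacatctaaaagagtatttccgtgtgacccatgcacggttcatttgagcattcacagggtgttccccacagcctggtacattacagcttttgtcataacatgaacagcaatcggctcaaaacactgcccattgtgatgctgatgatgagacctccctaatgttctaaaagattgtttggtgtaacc
KLF13: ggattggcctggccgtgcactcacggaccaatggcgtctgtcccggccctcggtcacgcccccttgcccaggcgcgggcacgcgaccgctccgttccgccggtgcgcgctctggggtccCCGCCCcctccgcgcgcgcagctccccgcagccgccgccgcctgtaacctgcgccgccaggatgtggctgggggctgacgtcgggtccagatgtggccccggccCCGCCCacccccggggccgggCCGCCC

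KLF4 carried 4 GC boxes and KLF13 3 in these stretches, while KLF9 and this KLF5 start carried none; their GC content was 69.2%, 78.8%, 32.4% and 40.8%. The other KLF5 start, whose window holds exons of the gene, carried 2 GC boxes, so that KLF9 alone of the 8 members had none in any window. Over all members 8 of 10 windows held a GC box, against 45.0% of all 35116 promoter windows and 65.4% of the 16436 windows of tested genes. The EGR motif (GCGTGGGCG or GCGGGGGCG, overlapping the GC box) matched in 2 windows, those of KLF6, which rose, and KLF2, which did not pass, against 5.77% of all windows and 9.07% of those of tested genes. The full cAMP response element TGACGTCA matched only in 1 of the KLF11 windows (1.85% of all windows and 2.79% of those of tested genes), and the CACCC box CCACCC only in that of KLF13 (34.3% and 38.1%). No window held the AP-1 motif TGANTCA, the CArG box of serum response factor, the TEAD motif GGAATG, the FOXO motif TGTTTAC, the SMAD motif GTCTAGAC or the glucocorticoid response element, all searched on both strands. These were found in 7.71%, 1.29%, 14.0%, 3.42%, 0.202% and 0.003% of all windows. A match describes letters only and a missing match speaks only for this window. The EGR and cAMP response element matches are shown in 30 bases each, with the motif in capitals: for KLF6 at chr10:3785256-3785285 (minus strand), for KLF2 at chr19:16324576-16324605 (plus strand) and for KLF11 at chr2:10044034-10044063 (plus strand).
KLF6 EGR: gggggagccagGCGGGGGCGgagggggagg
KLF2 EGR: ggGCGGGGGCGgggcccgggagagggggag
KLF11 CRE: atttccagccaTGACGTCAccccggtcctg

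KLF13 (chromosome 15, 31326855 to 31435665), which represses and activates genes in lymphocytes and heart, was low, at 3.30, 3.50 and 3.47 CPM in vehicle and 3.90, 4.06 and 3.39 CPM with the compound. Compound library 3 lay within the vehicle range. The difference was 0.14 ± 0.16 (adjusted p = 0.707), with a 95% interval of −0.19 to 0.48 that excluded the value of KLF9 but not those of KLF10 or KLF3. KLF15 (chromosome 3, 126342635 to 126357442, minus strand), a metabolic regulator of liver, muscle and kidney, was as low, at 4.58, 2.66 and 2.95 CPM in vehicle and 2.56, 2.53 and 3.07 CPM with the compound. Vehicle library 1 alone stood high. Its difference of −0.32 ± 0.22 (95% interval −0.79 to 0.15, adjusted p = 0.528) moved to −0.051 without that library.

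KLF3 and KLF10 had smaller and less firmly called rises. KLF3 (chromosome 4, 38664196 to 38701042), the CtBP-binding repressor, was at 77.4, 71.5 and 90.0 CPM in vehicle and stood at 106.0, 105.8 and 102.3 CPM with the compound. The compound libraries lay close together, and vehicle library 3 came nearest to them. The log2 fold change was 0.39 ± 0.08 (95% interval 0.22 to 0.56, adjusted p = 0.0227). The antisense gene KLF3-AS1 overlaps 4.22% of the exonic length of KLF3 and held 3 to 10 counts per library, against 1371 to 3021 for KLF3. KLF10, also called TIEG1 and named for its early response to TGF-beta, stood at 49.4, 53.2 and 51.8 CPM in vehicle and 65.6, 61.1 and 65.4 CPM with the compound. The groups were apart, with a log2 fold change of 0.32 ± 0.06 (95% interval 0.18 to 0.46, adjusted p = 0.0255). Both calls were lost in the 4 fits without vehicle 1 or without 1 of the compound libraries, with adjusted p up to 0.201 for KLF3 and 0.187 for KLF10. Over all 6 fits with a library left out, the log2 fold change ran from 0.32 to 0.49 for KLF3 and from 0.29 to 0.35 for KLF10.

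KLF4, KLF6, KLF9 and KLF11 passed in each of the 6 fits that left out 1 library, with adjusted p at most 0.0228, 6.90e-04, 0.00346 and 0.0270. In a fit with a term for the 3 pairs of libraries seen in the set of 17 genes, which leaves the comparison to vehicle library 3 and compound library 1, KLF6 (0.868, adjusted p = 0.00113) and KLF9 (0.642, adjusted p = 0.0318) passed. KLF4, KLF11, KLF10 and KLF3 did not pass there, at 0.561, 0.445, 0.339 and 0.236 (adjusted p = 0.231, 0.293, 0.450 and 0.719), with 40 genes called higher in all. Each group then rests on 1 library, and the spread in that fit comes from vehicle libraries 1 and 2 and compound libraries 2 and 3. The CPM in compound library 1 over that in vehicle library 3 was 1.82 for KLF6, 1.56 for KLF9 and 1.48 for KLF4. It was 1.36 for KLF11, 1.26 for KLF10 and 1.18 for KLF3. For the members that did not pass, this ratio was 1.12 for KLF13, 0.926 for KLF2, 0.868 for KLF15 and 0.746 for KLF5.

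**Figure D3:**
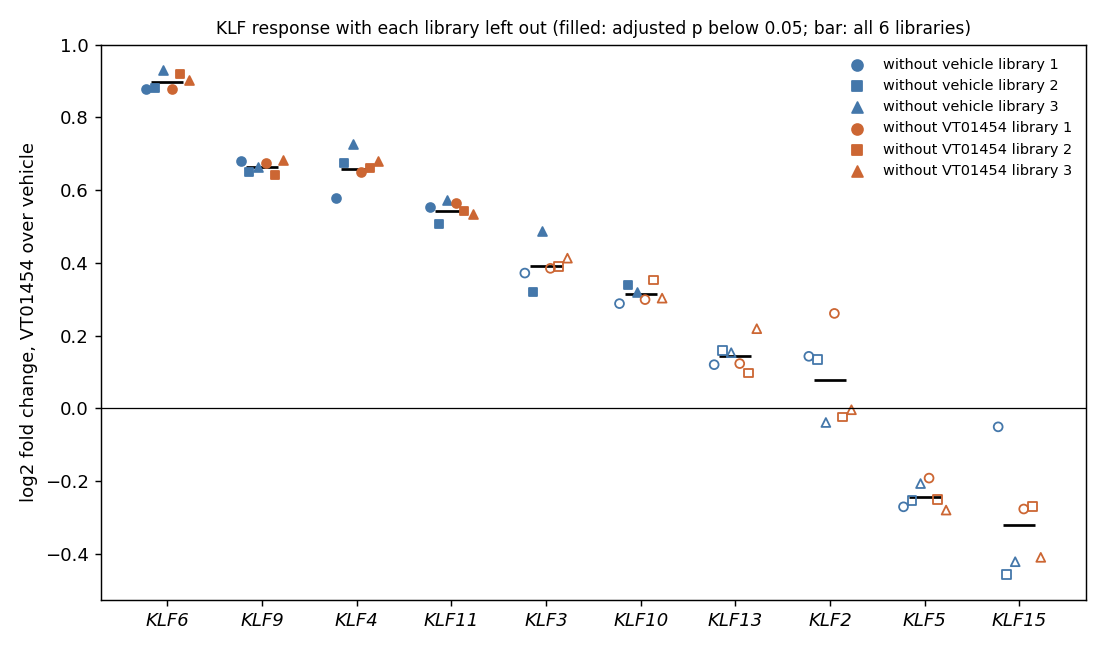
Log2 fold change of each member with all 6 libraries (black bar) and with each library left out in turn (symbols), blue for a vehicle library left out and orange for a compound library. Filled symbols passed at an adjusted p below 0.05. KLF6, KLF9, KLF4 and KLF11 stay filled throughout, and KLF3 and KLF10 are filled in 2 of 6 fits.

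Ratios between relatives were taken within each library, so that they do not depend on how libraries are scaled. Of 6 pairs, 4 had ratios that did not overlap between the groups, and each of these reached p = 0.1, the smallest that an exact two-sided permutation test of 3 against 3 libraries can give (adjusted p = 0.15 over the 6 pairs). No pair can therefore pass at 0.05 by this test. How often the ratios of other gene pairs lie apart was not measured. Of single tested genes, 11.3% lay wholly higher with the compound and 9.84% wholly lower. The KLF2 to KLF4 and KLF4 to KLF5 ratios share KLF4 and are not separate results. The log2 ratio of KLF4 to KLF5 was −2.18, −2.00 and −2.01 in vehicle and −1.02, −1.17 and −1.26 with the compound, a difference of 0.91 between means of −2.06 ± 0.10 and −1.15 ± 0.12 (SD, n = 3 each). That of KLF9 to KLF13 went from 3.50 ± 0.08 to 4.03 ± 0.11, a difference of 0.53. That of KLF2 to KLF4 went from −3.22 ± 0.33 to −3.83 ± 0.37, a difference of −0.61, although vehicle library 3 and compound library 3 were almost equal at −3.58 and −3.61. The ratio of the TGF-beta-inducible pair, KLF10 to KLF11, went from 1.21 ± 0.11 to 0.98 ± 0.08, a difference of −0.23. The KLF3 to KLF12 ratio overlapped between groups (1.40 ± 0.15 and 1.67 ± 0.15, exact permutation p = 0.2, n = 3 each), as did that of KLF6 to KLF7 (4.91 ± 0.30 and 4.76 ± 0.18, exact permutation p = 0.4).

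**Figure D4:**
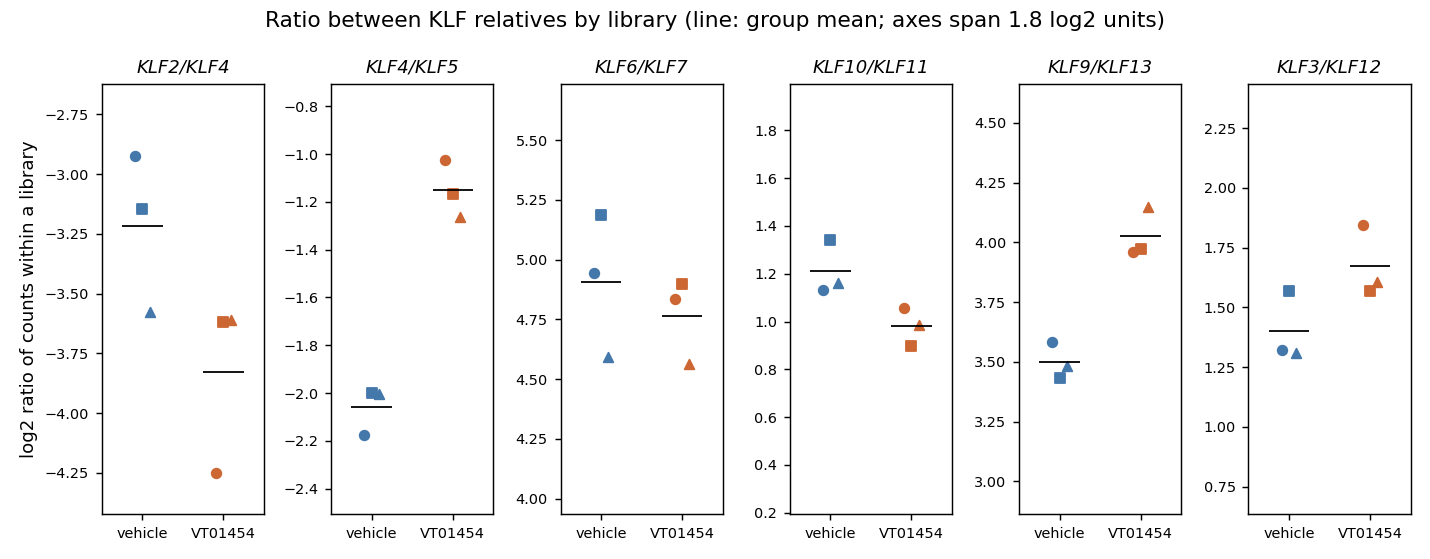
Log2 ratio of the counts of 2 related KLF genes within each library, vehicle in blue and VT01454 in orange, with lines at the group means. Each axis spans 1.8 log2 units. The KLF4 to KLF5 ratio shows the widest gap, 0.91, and the KLF6 to KLF7 ratio overlaps between the groups.

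Per length, in CPM per kb of annotated exon, KLF5 was the highest of the 10 members in vehicle at 17.1 ± 0.81 (SD, n = 3). KLF10, KLF3 and KLF6 followed at 12.9 ± 0.48, 12.7 ± 1.5 and 11.6 ± 0.48. KLF3 was not apart from either neighbour beyond their spread. Then came KLF9 at 7.53 ± 0.18, KLF11 at 4.84 ± 0.25 and KLF4 at 4.36 ± 0.46, the last pair within their spread, and KLF15 at 1.19 ± 0.36, KLF2 at 0.843 ± 0.11 and KLF13 at 0.364 ± 0.011. With the compound the highest was KLF6, at 21.5 ± 0.56 CPM per kb, ahead of KLF3 at 16.6 ± 0.33, KLF10 at 16.0 ± 0.63, which overlapped KLF3, and KLF5 at 14.4 ± 0.93. KLF9 stood at 11.9 ± 0.37, KLF11 at 7.07 ± 0.17 and KLF4 at 6.90 ± 0.14 on this scale, the last pair again overlapping. Summed over all 18 KLF genes the level was 89.6 to 93.9 CPM per kb in vehicle and 113.5 to 115.7 CPM per kb with the compound. KLF6 made up 12.5 to 12.9% of that sum in vehicle and 18.2 to 19.5% with the compound, while KLF5 went from 18.3 to 19.1% down to 11.8 to 13.1%. The share of KLF10 overlapped between the groups, at 13.8 to 14.8% and 13.3 to 14.4%.

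**Figure D5:**
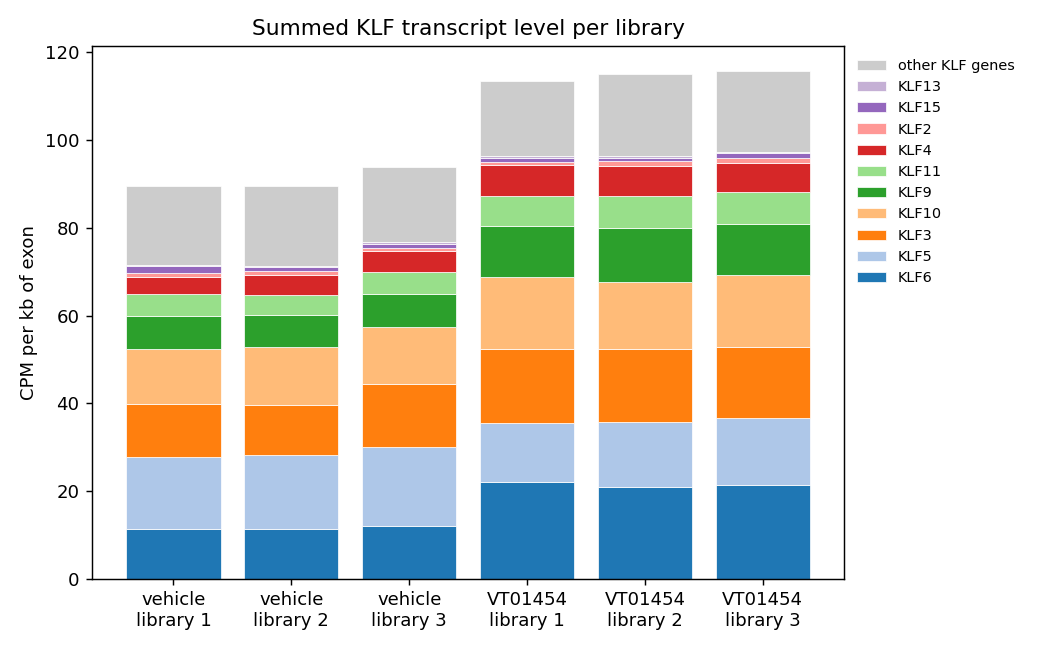
Summed level of all 18 KLF genes in each library, in CPM per kb of exon, stacked by gene with the 8 KLF genes outside the 10 members in grey. The 3 compound libraries sum to 113.5 to 115.7 and the 3 vehicle libraries to 89.6 to 93.9, and the KLF6 segment is the one that widens most.

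Among the other KLF genes, KLF7, the nearest relative of KLF6 and a factor of neuronal growth, rose from 2.22, 1.88 and 3.06 CPM to 4.74, 4.3 and 5.56 CPM. The groups were apart, with a log2 fold change of 1.01 ± 0.20 (adjusted p = 0.0212), but the same 4 fits with a library left out lost the call (adjusted p up to 0.174), as did the fit with the library pair term, at 0.628 (adjusted p = 0.813). The differences of KLF12 (0.10 ± 0.13), KLF8 (−0.026 ± 0.16) and KLF16 (−0.0050 ± 0.08) did not pass (adjusted p = 0.753, 0.955 and 0.980), and the signs of all 3 turned in at least 1 alternative fit. KLF12 averaged 30.45 CPM in vehicle and 32.91 CPM with the compound, KLF8 4.977 and 4.909 CPM, and KLF16 40.95 and 40.74 CPM. Per length KLF16 was abundant, at 13.86 ± 1.205 CPM per kb in vehicle and 13.79 ± 0.3715 with the compound (SD, n = 3 each). KLF14, an imprinted single-exon gene, was at 0.933 CPM in vehicle and 0.449 CPM with the compound (−1.06 ± 0.39, adjusted p = 0.237). KLF1, the erythroid factor, and KLF17 had 0 counts in every library, which allows up to 0.105 to 0.157 CPM as counting error only, and KLF18 had at most 3 counts.

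Genes around the KLF factors were read from lists that do not include the members. None of the 8 tested SP factors, the sister family of zinc finger proteins, passed in edgeR, DESeq2 or limma-voom, and 3 had an unadjusted p below 0.05, against 14.4% of all tested genes, SP4 (0.29 ± 0.09, adjusted p = 0.177), SP2 (0.23 ± 0.08, adjusted p = 0.185) and SP3 (0.18 ± 0.07, adjusted p = 0.276). The next smallest p was that of SP6 (−0.46 ± 0.25, adjusted p = 0.432). None of 15 KLF cofactors passed in any of these tools, 6 had an unadjusted p below 0.05 (14.4% of all tested genes), and the list median was 0.00198; the smallest p values were those of the corepressor genes SIN3A (0.20 ± 0.07, adjusted p = 0.217) and SIN3B (−0.15 ± 0.07, adjusted p = 0.320), of the scaffold gene WDR5 (−0.16 ± 0.06, adjusted p = 0.226) and of the acetyltransferase gene CREBBP (0.25 ± 0.10, adjusted p = 0.306). Of the kinases and MEF2 factors of the MEK5-ERK5 route, which induces KLF2 and KLF4 in endothelium, 0 of 11 tested genes passed in edgeR or limma-voom and 1 was called higher by DESeq2, with 5 at an unadjusted p below 0.05, again beside 14.4% of all tested genes. The nearest in edgeR was MAP3K2 (0.31 ± 0.08, adjusted p = 0.0829).

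Of 14 genes for enzymes that degrade or stabilise KLF proteins, FBXO32, an F-box ubiquitin ligase gene, rose 1.36-fold (adjusted p = 0.0205) and VHL, a ubiquitin ligase gene better known for HIF turnover, fell 1.22-fold (adjusted p = 0.0421). Both calls were lost in 4 of 6 fits with a library left out (adjusted p up to 0.147 and 0.274), and that of VHL also with the replicate block (adjusted p = 0.0603). Among 13 tested genes reported as KLF targets, 1 passed, the cell cycle inhibitor gene CDKN1A, at 1.23-fold higher (adjusted p = 0.0492, up to 0.265 with a library left out). That call was also lost with limma-voom (adjusted p = 0.0518), with library size alone (0.0709) and with the replicate block (0.0671). The median of that list was −0.0303. An unadjusted p below 0.05 was reached by 3 of the 14 turnover genes and 3 of the 13 reported targets, against 14.4% of all tested genes. Of all tested genes, 1.27% were called higher and 0.616% lower.

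Genes that share inducers with KLF members moved in part, where 1.27% of all tested genes were called higher and 0.616% lower. Of 11 TGF-beta early targets, 4 rose, the AP-1 gene JUNB (2.32-fold, adjusted p = 1.5e-05), the clock-linked repressor gene BHLHE40 (1.45-fold, adjusted p = 0.00169), the TGF-beta feedback inhibitor gene PMEPA1 (1.52-fold, adjusted p = 0.00336) and the SMAD corepressor gene TGIF1 (1.38-fold, adjusted p = 0.00798). SMAD6, an inhibitory SMAD gene, fell 1.26-fold (adjusted p = 0.0442, named after its value was seen), but did not pass with limma-voom (adjusted p = 0.0501). The other 6 TGF-beta early targets did not pass in edgeR. An unadjusted p below 0.05 was reached by 6 genes of that list, 5 higher and 1 lower, against 14.4% of all tested genes. Of 11 glucocorticoid targets, 3 rose, the EGF receptor inhibitor gene ERRFI1 (1.84-fold, adjusted p = 2.31e-06), the MAP kinase phosphatase gene DUSP1 (1.37-fold, adjusted p = 0.00363) and TIPARP (1.26-fold, adjusted p = 0.0223). The metallothionein gene MT2A stood at −0.33 ± 0.09 (adjusted p = 0.117), and the other 7 genes of the list, none of which passed in edgeR, lay between −0.27 and 0.29. At an unadjusted p below 0.05 the list held 5 genes, 4 higher and 1 lower, against 14.4% of all tested genes in either direction. The list medians were 0.358 for TGF-beta early targets and 0.18 for glucocorticoid targets. The calls of SMAD6 and TIPARP were lost in 4 of the 6 fits with a library left out (adjusted p up to 0.255 and 0.171), that of TGIF1 in 3 (up to 0.0745), and those of PMEPA1 and DUSP1 in 1 (0.0681 and 0.0523).

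The genes whose log2 CPM followed KLF6 most closely over the 6 libraries were ITPRIP (Pearson r = 0.9994), the anti-apoptotic BCL2 family gene MCL1 (0.9980), the tropomyosin gene TPM4 (0.9979), the RNA-binding ubiquitin ligase gene MEX3C (0.9973) and the splicing kinase gene CLK3 (0.9971). All points share 2 groups, so these values mostly describe the step between vehicle and compound. ITPRIP matched KLF6 in size as well, with a log2 fold change of 0.91 from 18.6 to 35.0 CPM, whereas that of MCL1 was 0.27.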

How the data were processed

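RNA was sequenced from 6 HEK293A libraries, 3 vehicle and 3 compound. The authors deposited unnormalised counts of reads for each Ensembl gene, and HISAT2 2.2.1, HTSeq 0.9.1 and the hg38 build are named in the submitters' processing notes. The sources used here do not give the annotation release or strand setting, so antisense reads may be included. Symbols matched 60357 of 60676 identifiers, and GENCODE 29 gave coordinates and exonic lengths. edgeR 4.0.16 in R 4.3.3 fitted the quasi-likelihood test with filterByExpr, TMM and robust dispersion, two-sided, over 15577 genes holding at least 99.88% of counts in each library, and called genes at a Benjamini-Hochberg adjusted p below 0.05. The standard error is the log2 fold change over the square root of F. Pair ratios used counts plus 0.5. DESeq2 1.42.0 and limma 3.58.1 (voom) were alternatives. The fit was tested on simulated data, where false calls were more frequent than the threshold aims at when dispersions were drawn gene by gene, so calls near the threshold are less secure. Genes were named by rule (all KLF genes, up to 4 of each other list by smallest p, the 5 most like KLF6), except where the text says otherwise. Members and lists were chosen with earlier results of these data known. The value of 1 listed gene is not reported here.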

Additional observations from a re-analysis of the deposited data

How the results depend on the processing

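The count of members called higher was 6 under 7 alternatives, with 0 lower: the tools DESeq2 and limma-voom, scaling by library size or by DESeq2's size factors, keeping all genes or those averaging 1 CPM, and the replicate block. It was 4 at an adjusted p of 0.01, 4 to 6 with a library left out, and 2 with the term for library pairs, which was chosen after seeing the data and which of the 12 other listed genes called left JUNB, ERRFI1 and DUSP1. That term gave 0.236 for KLF3, 0.561 for KLF4, 0.339 for KLF10 and 0.445 for KLF11, none of them passing; only vehicle library 3 and compound library 1 bear on it. With a library left out KLF3 ran from 0.321 to 0.489 and KLF10 from 0.288 to 0.353. KLF2, never called, ran from −0.039 to 0.261 and was −0.11 with the pair term. KLF8 ran from −0.165 to 0.123 and KLF12 from −0.037 to 0.252 (−0.299 with the pair term). KLF16 ran from −0.076 to 0.051, and was 0.001 with limma-voom, 0.009 with no count filter and 0.091 with the pair term. The replicate block gave 232 genes higher and 107 lower and changed no member's call. Deviations of same-numbered libraries correlated at −0.07, 0.028 and −0.014. Those of vehicle library 3 and compound library 1, linked by the set of 17 genes, were also near 0, at 0.058. These correlations therefore cannot decide whether libraries were paired. Over all genes, 298 were higher with DESeq2, 508 with no count filter, 94 at an adjusted p of 0.01, 40 with the pair term and 73 to 1170 with a library left out, the last without vehicle library 3. Those lower were 205 with no count filter, 31 at 0.01, 10 with the pair term and 20 to 636 with a library left out. Of the other listed genes, 10 were higher and 2 lower; these became 6 and 0 at 0.01, 3 and 0 with the pair term, and 4 to 22 and 0 to 6 with a library left out, and 1 was lower with limma-voom and with the replicate block. The 6 pair ratios kept their sign and moved by less than the spread between libraries with 2 counts added or any library left out, and the replicate block leaves such a mean difference as it is by construction. Low counts limit KLF2 and KLF13, whose intervals include a rise as large as that of KLF10.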
